A study of Mus musculus with 20 samples.

Results

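The 38 Hox genes of the mouse Hoxa, Hoxb, Hoxc and Hoxd clusters on the gene list were examined in mouse embryonic fibroblasts exposed to mouse serum. Members were chosen by name, as every gene of the list with a probe that is not a control spot and whose transcript accession maps to it in RefSeq. A probe was matched for 35 of the 38, by 45 probes in all, and 10 genes had 2 probes. Hoxc4, Hoxc6 and Hoxc11 had no matched probe and were not analysed here. Of the 35 genes, 32 passed the filter on dim probes and were tested among 20226 genes and unnamed probes in all, while Hoxb1, Hoxd1 and Hoxd12 did not pass. Membership followed the list alone, and the list was chosen with earlier results of these data known.

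The fibroblasts grew for 24 hours in medium with serum from C3H/HeN females, and total RNA was hybridised to one-colour Agilent arrays, 20 in all. The 10-day set had 5 arrays with serum of mice that received 0 Gy and 5 with serum of mice irradiated with 4 Gy, marked L/MDR in the labels. The 20-day set had 5 arrays with 0 Gy serum and 5 with serum of mice given 8 Gy, again marked L/MDR. Dose and day change together between the sets, so their parts cannot be told apart, and the sources used here do not say how the 10 or 20 days relate to the 24 hours of culture. The strain, embryonic stage and body region of the fibroblasts, the age of the mice, and whether arrays of a group came from separate cultures or separate mice are not given in the sources used here. So the p-values below reflect just the array-to-array spread, and part or all of that may be technical.

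Hox genes encode homeodomain transcription factors that give embryonic cells their position along the head-to-tail axis and along the limbs. They lie in clusters, with low paralogue numbers at the end expressed toward the head and high numbers at the end expressed toward the tail and the tips of the limbs, and paralogues of the same number in different clusters descend from one ancestral gene. Cultured fibroblasts keep a Hox pattern that reflects the body site they were taken from, so that a Hox profile is widely read as a record of positional identity.

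Each value below is the log2 of the background-corrected, scanner-processed probe signal minus the log2 75th percentile of its own array, so 0 is the level of a bright probe and each step of 1 is a doubling. Probes differ in how well they bind, so levels are compared between groups for the same probe and never between genes. A gene rose or fell where limma's moderated test gave a Benjamini-Hochberg adjusted p under 0.05 over all genes tested, and changes are given in log2 units with their standard error. The arrays are bulk measurements, so fewer cells of a type and less RNA per cell cannot be told apart. This percentile ranged from 969 to 1464 units of intensity in the 10-day set and from 731 to 1021 in the 20-day set. Between 56.8% and 67.2% of probes were well above background on an array. The 20 arrays lay on 7 slides. In the 10-day set slide 1 held 4 control arrays, slide 2 held 1 control and 2 irradiated arrays, and slide 3 held the other 3 irradiated arrays. In the 20-day set each slide held a single group, on 2 slides per group, so slide enters there only as a random block. The sets shared no slide and were scanned on different days, so the set and these batches cannot be told apart.

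The fibroblast label was checked against marker genes. All 16 fibroblast markers were well above background on every array of all 4 groups. Markers of other cells differed between the sets: all 14 tested macrophage and myeloid markers were higher in the 20-day than in the 10-day control cultures, with a median difference of 4.32, and the summed level of the 16 with a probe was 3.21 to 4.71 array 75th percentiles in the 10-day controls against 100.3 to 123 in the 20-day controls. All 6 tested muscle markers were lower in the 20-day controls, with a median difference of −2.32, and their defining members Myog and Myh3 were well above background on 5 of 5 10-day control arrays and on 0 of 5 20-day control arrays. Of the 16 fibroblast markers, 3 were higher and 11 lower in the 20-day controls, with a median of −0.55. Among 7 tested epithelial markers 3 were higher and 2 lower, among 5 endothelial markers 4 were lower, and among 6 neural markers 1 was higher and 4 lower. With 8 Gy serum, against its own controls, 6 of the 14 macrophage markers, 3 of 6 neural markers and 2 of 5 endothelial markers fell and none of them rose, while 3 of 16 fibroblast markers rose and 3 fell, 1 of 6 muscle markers rose, and no epithelial marker was called. Calls on Gfap, Cdh5 and Myog are left out of these counts, since no array of either group was above background there. The summed macrophage level was then 85.9 to 99.3. With 4 Gy serum 2 macrophage and 2 of 7 epithelial markers rose and 1 fibroblast marker fell, with a summed macrophage level of 4.04 to 5.04, but with slide as a random block limma called 1 of all 20224 genes in this comparison. Among all genes 66.4% were called between the controls, 46% with 8 Gy serum and 5.97% with 4 Gy serum, and several of these marker counts lie near those shares. The part of these differences in the Hox results was not tested.

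Hox genes of the head end, the trunk and the limb end of the clusters all gave signal in these cells. Of the 35 genes with a probe, 30 were well above background on all 5 arrays with 10-day control serum, 32 with 4 Gy serum, 27 with 20-day control serum and 27 with 8 Gy serum. The share of all probes well above background on an array was 60.9% to 66.3%, 63.0% to 67.2%, 56.8% to 64.1% and 60.9% to 63.4% in these groups. The anterior paralogues 1 to 4 were represented by 8 of 10 genes in the 10-day control group and 7 of 10 in the 20-day control group, the central paralogues 5 to 8 by 9 of 10 in both, and the posterior paralogues 9 to 13 by 13 of 15 and 11 of 15. Genes above background thus ran from the head-end paralogue Hoxa2, which patterns the hindbrain and the second pharyngeal arch, to the tail-end paralogues Hoxa13 and Hoxd13, which pattern the hands and feet. Hoxb1 and Hoxd1, the only members numbered 1 with a probe, were above background on none of the 20 arrays. Hoxd12, a limb gene next to Hoxd13, was above background on 1, 1, 2 and 2 arrays of the 4 groups in the order given above.

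The 2 sets differed in detection at the tail end of the Hoxb and Hoxc clusters. Hoxb13, which acts in the tail bud and prostate, was above background on all 10 arrays of the 10-day set, on 0 of 5 20-day control arrays and on 3 of 5 arrays with 8 Gy serum. Hoxc12, a neighbour of the hair gene Hoxc13, went from all 10 arrays in the 10-day set to 0 of 10 in the 20-day set. Hoxc13, which drives hair keratin genes, went from 4 of 5 control and 5 of 5 irradiated arrays in the 10-day set to 0 of 5 in both 20-day groups. Its mean in the 10-day controls was −5.75, near the limit of detection. The lowest signal marked well above background was −6.51 to −5.61 on the 20-day control arrays. Hoxa6, a thoracic-level gene, was above background on 4, 5, 1 and 4 arrays of the 4 groups, and Hoxd3, which patterns the first neck vertebra, on 5, 5, 4 and 4. The other 27 tested members were above background on all 20 arrays.

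**Figure D1:**
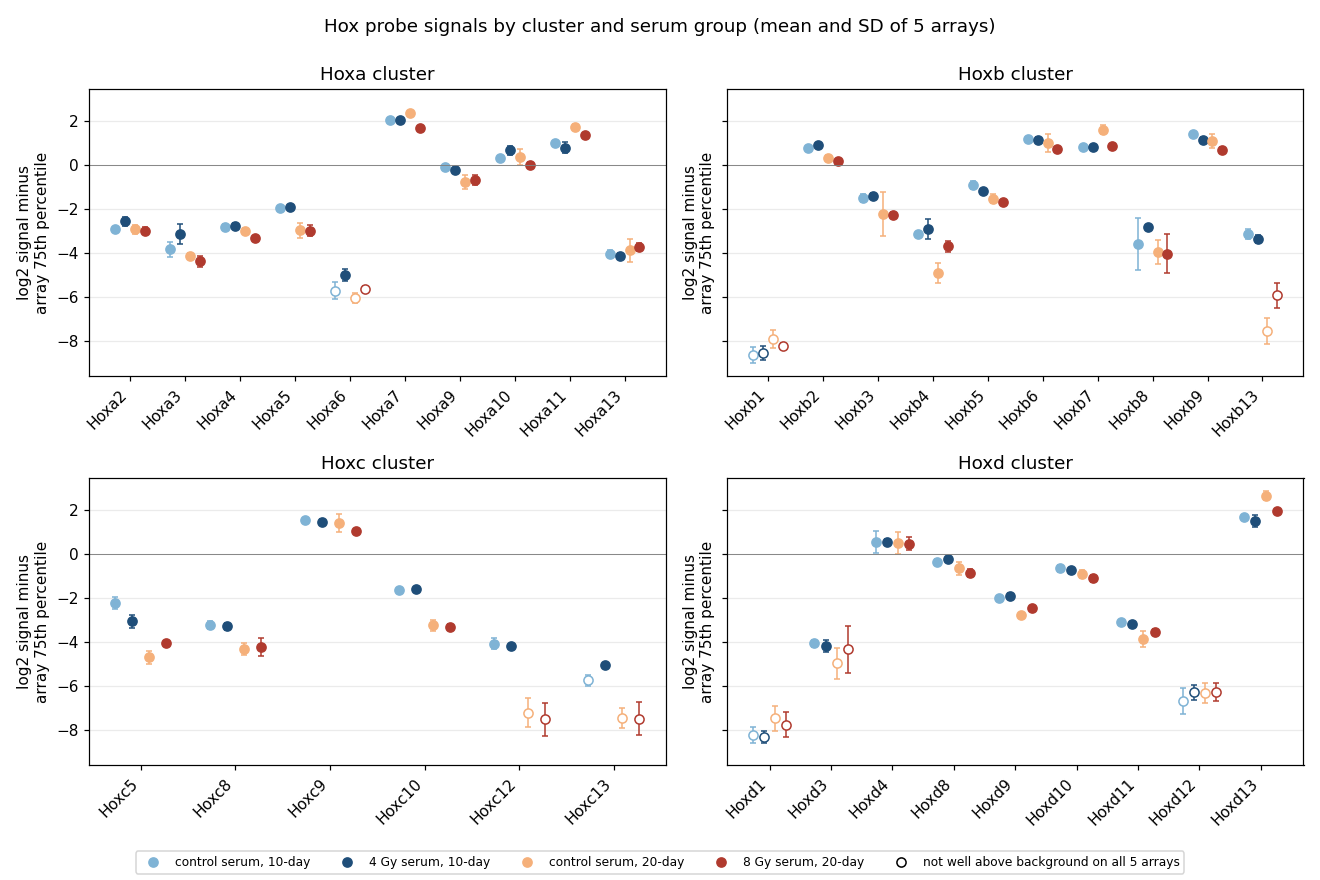
Probe signal of the 35 Hox genes with a probe, as log2 signal minus the array 75th percentile (y axis), ordered by paralogue number within each cluster (x axis). Points are means and bars the SD of 5 arrays per serum group, and open points mark groups in which the probe was not well above background on all 5 arrays. Hoxb13, Hoxc10, Hoxc12 and Hoxc13 lie lower in both 20-day groups than in both 10-day groups.

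With serum of mice given 8 Gy, 14 of the 32 tested Hox genes differed from the 20-day control, 6 upward and 8 downward. Across all genes tested 46% were called in this comparison, 17.3% upward and 28.8% downward, so the share among Hox genes was near the background. The median Hox change was −0.08, beside −0.09 over all genes. The genes that fell were Hoxa4, Hoxa7, Hoxa10, Hoxa11, Hoxb7, Hoxb9, Hoxc9 and Hoxd13, and those that rose were Hoxa6, Hoxb4, Hoxb13, Hoxc5, Hoxd9 and Hoxd11. With the array median as the scale the split was 3 upward and 14 downward, and with normexp background correction it was 1 and 7. Of all genes 51.7% and 38.9% were called in these fits. Among the 27 members above background on all 20 arrays, 4 rose and 8 fell, beside 48.7% of all genes with such signal called, 16.4% upward and 32.2% downward.

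Both measured paralogues of group 7 fell by similar amounts with 8 Gy serum. Hoxa7 and Hoxb7 are thoracic-level genes that shape the ribs and trunk vertebrae. Hoxa7 was 2.41, 2.48, 2.40, 2.28 and 2.23 on the 5 20-day control arrays and 1.64, 1.67, 1.68, 1.63 and 1.76 on the 5 arrays with 8 Gy serum. Every array with 8 Gy serum lay below every control array. The change was −0.69 ± 0.07, a 1.61-fold lower signal (adjusted p = 2.82e-07). In the 10-day set Hoxa7 was 2.08, 1.99, 1.99, 1.97 and 2.16 with control serum and 2.03, 2.15, 2.02, 1.92 and 2.00 with 4 Gy serum, and the groups overlapped.

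Hoxb7 was 1.85, 1.72, 1.60, 1.36 and 1.44 on the 20-day control arrays and 0.79, 0.96, 0.82, 0.84 and 0.89 with 8 Gy serum. The control values stood apart and above, and the change was −0.74 ± 0.08 (1.67-fold lower, adjusted p = 1.12e-06). In the 10-day set it was 0.77, 0.89, 0.87, 0.75 and 0.83 with control serum and 0.86, 0.82, 0.79, 0.78 and 0.90 with 4 Gy serum. The 8 Gy arrays thus lay at about the level of both 10-day groups, and the 20-day controls lay above all 3. Between 8 Gy and 4 Gy serum Hoxb7 differed by 0.03 ± 0.08, which did not pass the test. The calls on Hoxa7 and Hoxb7 were kept under all 11 alternative settings of this comparison, with adjusted p = 1.58e-05 and 6.41e-05 with slide as a random block.

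Hoxd13, the last gene of the Hoxd cluster and a determinant of digit number and shape, fell as well. It was 2.47, 2.96, 2.64, 2.44 and 2.62 on the 20-day control arrays and 1.94, 1.97, 1.86, 1.98 and 2.02 with 8 Gy serum, with no overlap. The change was −0.67 ± 0.11 (1.59-fold lower, adjusted p = 1.20e-04). Its other probe also fell, by less (−0.26 ± 0.06, adjusted p = 0.00334). Hoxa11, which forms the forearm together with Hoxd11, was 1.61, 1.71, 1.64, 1.89 and 1.84 on the control arrays and 1.30, 1.28, 1.46, 1.34 and 1.40 with 8 Gy serum. These groups did not overlap either, and the change was −0.38 ± 0.10 (adjusted p = 0.00367). Hoxd11 itself rose by 0.33 ± 0.13 (adjusted p = 0.0358), with overlapping groups, and its call was kept under 2 of 11 alternatives.

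Hoxb4 and Hoxb13 rose, at different positions of one cluster. Hoxb4, known for expanding blood stem cells when overexpressed, was −4.46, −5.07, −4.71, −4.71 and −5.59 on the 20-day control arrays and −3.81, −3.55, −3.52, −4.07 and −3.58 with 8 Gy serum. All arrays with 8 Gy serum were above all controls, and the change was 1.21 ± 0.21 (2.31-fold higher, adjusted p = 1.19e-04). Both 20-day groups lay below the 10-day controls, which were −3.05, −3.15, −3.23, −3.22 and −3.07. With 4 Gy serum the values were −3.42, −3.21, −2.20, −2.91 and −2.80, spread around the 10-day controls.

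Hoxb13 was −7.21, −7.51, −8.06, −6.75 and −8.18 on the 20-day control arrays, none well above background, and −5.12, −5.93, −5.98, −6.68 and −5.92 with 8 Gy serum, 3 of 5 above background. The measured change was 1.62 ± 0.26 (adjusted p = 6.19e-05). A group without signal above background gives only a bound, computed against the lowest signal that was well above background on each array. By it Hoxb13 was 1.09-fold higher with 8 Gy serum. That mean includes arrays not above background themselves, so 1.09 is not a strict minimum and the size of the rise is not known. With normexp background correction the call was lost (adjusted p = 0.0537). Both groups were far below the 10-day set, where Hoxb13 was −3.05, −2.90, −3.05, −3.16 and −3.55 with control serum and −3.26, −3.18, −3.34, −3.66 and −3.38 with 4 Gy serum.

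Among the other genes that rose, Hoxd9, a limb and lower-trunk gene, was −2.75, −2.73, −2.88, −2.78 and −2.87 on the control arrays and −2.56, −2.32, −2.49, −2.46 and −2.55 with 8 Gy serum. The groups did not overlap, and the change was 0.33 ± 0.07 (adjusted p = 9.85e-04), with its other probe at 0.78 ± 0.11 (adjusted p = 3.35e-05). The rise of Hoxd9 was not called with array-median scaling or normexp. Hoxc5, a gene of the lower neck and forelimb level, rose by 0.63 ± 0.15 (adjusted p = 0.00245) with groups that did not overlap. Hoxa6 rose by 0.42 ± 0.16 (adjusted p = 0.0416), from 1 of 5 arrays above background to 4 of 5, and its call was not kept with the slide block (adjusted p = 0.155) or in 7 of 10 fits that leave out 1 array.

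The remaining genes that fell with 8 Gy serum were Hoxa4, Hoxb9, Hoxc9 and Hoxa10. Hoxa4, a neck-level gene, fell on the probe that stands for it (−0.35 ± 0.08, adjusted p = 0.0012). On its dimmer probe the measured change was 0.58 ± 0.17 (adjusted p = 0.0137). That probe was above background on 0 of 5 control arrays and 3 of 5 with 8 Gy serum. Its bound was 1.04-fold, which is not a strict minimum, since some arrays of the brighter group were not above background either. The measured direction thus differed between probes, with the size on the dimmer one not known. The paralogues Hoxb9 and Hoxc9, active at rib-bearing levels, fell (−0.39 ± 0.12 and −0.39 ± 0.14), as did Hoxa10, needed in the uterus and at lumbar levels (−0.35 ± 0.14). In these 3 the groups overlapped, and none of the 3 calls was kept with slide as a random block (adjusted p = 0.0904, 0.117 and 0.2). In all, 9 of the 14 calls were kept with that block, 4 upward and 5 downward, beside 29.2% of all genes called. Same-numbered arrays of the 20-day groups deviated together, and with the replicate number as a block within the 20-day set 10 of the 14 calls were kept, 5 in each direction, beside 34.3% of all genes called. The calls lost were Hoxa10, Hoxb9, Hoxc9 and Hoxd11 (adjusted p = 0.0788, 0.0604, 0.139 and 0.11). The 6 kept under all 11 alternatives were Hoxa4, Hoxa7, Hoxa11, Hoxb4, Hoxb7 and Hoxd13.

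Members of one paralogue group did not all move together with 8 Gy serum. In group 4, Hoxb4 rose, Hoxa4 fell on its main probe, and Hoxd4 did not pass the test (−0.04 ± 0.24). In group 9, Hoxb9 and Hoxc9 fell, Hoxd9 rose, and Hoxa9 did not pass (0.10 ± 0.13). In group 13, Hoxb13 rose and Hoxd13 fell. Hoxa13 did not pass on its main probe (0.14 ± 0.18), while its other probe fell (−0.59). Hoxc13 did not pass either (−0.02 ± 0.27), but it was above background on 0 of 5 arrays in both groups, so its change was not measured. In group 5, Hoxc5 rose, and Hoxa5 and Hoxb5 did not pass (−0.01 ± 0.13 and −0.15 ± 0.09). Differences between paralogues were not tested. By cluster, 1 rose and 4 fell of 10 Hoxa genes, 2 and 2 of 9 Hoxb genes, 1 and 1 of 6 Hoxc genes, and 2 and 1 of 7 Hoxd genes.

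**Figure D2:**
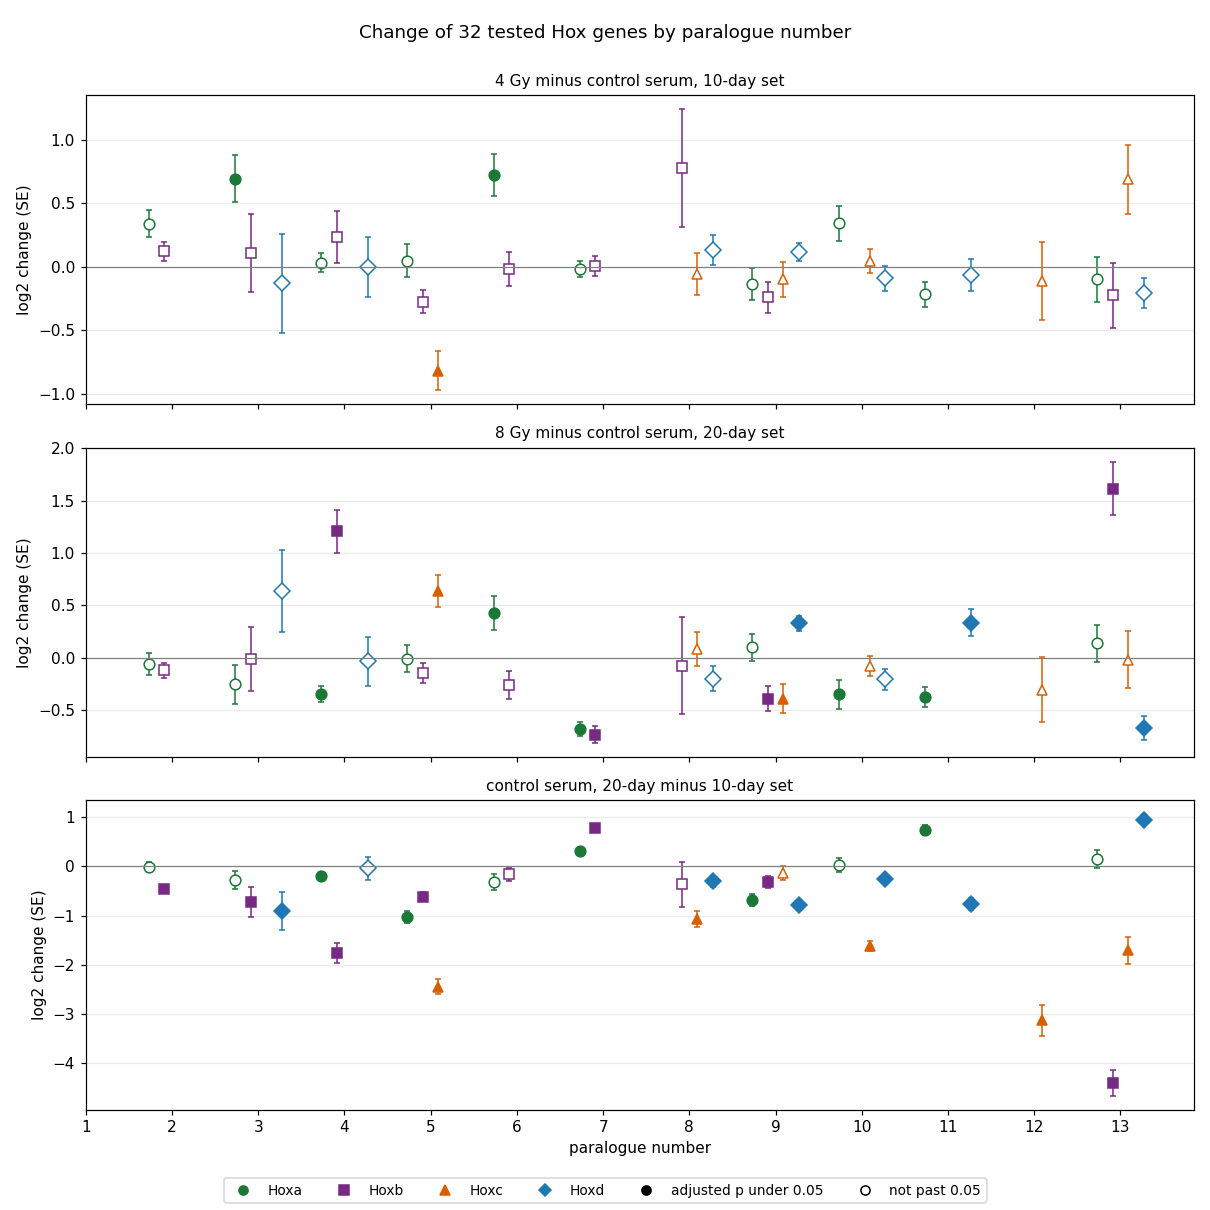
Change of the 32 tested Hox genes in log2 units with its standard error (y axis), by paralogue number (x axis) and cluster (symbol), for 4 Gy serum, for 8 Gy serum and for the 20-day against the 10-day controls. Filled symbols passed an adjusted p of 0.05, as 3, 14 and 23 genes did. Points are measured values. Only a bound can be given for Hoxb13, Hoxc12 and Hoxc13 in the control panel, and the size of the Hoxb13 change in the 8 Gy panel is not known. In the 8 Gy panel Hoxc12 and Hoxc13 were above background on 0 of 5 arrays of both groups, so their changes were not measured. With 8 Gy serum Hoxa7 and Hoxb7 lie side by side below 0, and between the controls 5 of the 6 Hoxc genes were lower, all but Hoxc9. The y scale differs between the panels.

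The sequence before the start is shown for 4 examples, chosen after their values were seen, whose calls with 8 Gy serum were kept under all alternatives. Hoxa7, Hoxa11 and Hoxd13 fell and Hoxb4 rose. Hoxa4 and Hoxb7 were kept as well and are not shown. Each line gives the 250 bases upstream of the RefSeq start on the gene's own strand, 5′ to 3′, with CG dinucleotides in capitals, in GRCm38.p6 coordinates. Hoxa7 lies at chr6:52218574-52218823 (minus strand), Hoxa11 at chr6:52245811-52246060 (minus strand), Hoxd13 at chr2:74667975-74668224 (plus strand) and Hoxb4 at chr11:96318017-96318266 (plus strand).
Hoxa7: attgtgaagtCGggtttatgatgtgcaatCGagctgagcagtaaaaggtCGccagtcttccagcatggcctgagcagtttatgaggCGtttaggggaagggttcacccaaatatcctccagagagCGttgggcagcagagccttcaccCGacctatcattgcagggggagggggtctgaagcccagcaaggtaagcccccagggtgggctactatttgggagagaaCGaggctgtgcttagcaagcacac
Hoxa11: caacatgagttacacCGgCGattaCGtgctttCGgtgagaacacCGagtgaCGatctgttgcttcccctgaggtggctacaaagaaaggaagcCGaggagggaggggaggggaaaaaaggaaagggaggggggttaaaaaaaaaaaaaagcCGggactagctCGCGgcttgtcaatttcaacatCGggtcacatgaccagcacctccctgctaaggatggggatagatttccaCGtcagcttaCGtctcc
Hoxd13: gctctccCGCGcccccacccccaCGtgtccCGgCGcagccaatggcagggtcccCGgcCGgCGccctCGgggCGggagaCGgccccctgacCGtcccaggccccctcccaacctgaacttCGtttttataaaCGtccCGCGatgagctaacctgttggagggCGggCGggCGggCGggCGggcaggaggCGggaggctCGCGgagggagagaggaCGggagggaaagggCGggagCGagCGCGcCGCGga
Hoxb4: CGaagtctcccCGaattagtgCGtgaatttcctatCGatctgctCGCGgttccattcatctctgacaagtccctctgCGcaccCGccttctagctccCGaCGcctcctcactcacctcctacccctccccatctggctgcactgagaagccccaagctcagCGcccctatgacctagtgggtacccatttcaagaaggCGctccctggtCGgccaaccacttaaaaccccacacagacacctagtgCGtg
CG dinucleotides are sites of DNA methylation, and windows rich in them are typical of developmental genes. Hoxd13 held 31 CG dinucleotides, more than 94.8% of the 32851 windows of this length in the table. Hoxb4 held 14, Hoxa11 13 and Hoxa7 7, beside a median of 6 over all windows and 12.5 over the 24 windows of the 22 Hox genes that have an entry. The letters TATAAA, the core of the TATA box, occurred on either strand in the Hoxd13 window and in none of the other 3, and in 4 of the 24 Hox windows against 12.4% of all windows. The letters TGATNNAT, a form of the site bound by Pbx and Hox proteins together, occurred in none of the 4, in 4 of the 24 Hox windows and in 7.68% of all windows.

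With serum of mice given 4 Gy, 3 of the 32 Hox genes differed from the 10-day control: Hoxa3 and Hoxa6 were higher and Hoxc5 was lower. Across all genes tested 5.97% were called in this comparison, 4.5% upward and 1.47% downward. Among the 27 members above background on all 20 arrays 1 rose and 1 fell, beside 4.93% of genes with such signal called, 3.34% upward and 1.6% downward. The median Hox change was −0.01, beside 0.00 over all genes. None of the 3 calls held once slide was taken into account. With slide as a random block limma called no Hox gene, and 2 had an unadjusted p under 0.05. With slide as a fixed block in the 10-day set, none was called either, and 3 had an unadjusted p under 0.05. Of all 20224 genes these fits called 1 and 20, so the lack of calls is not particular to Hox genes.

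Hoxc5 was −2.18, −2.14, −2.43, −1.92 and −2.61 on the 10-day control arrays and −2.70, −2.87, −3.11, −3.34 and −3.34 with 4 Gy serum. All 5 irradiated arrays were below all 5 controls, and the change was −0.82 ± 0.15 (1.76-fold lower, adjusted p = 0.0105). The lowest control was the fifth, which shared slide 2 with the first 2 irradiated arrays, and these were the highest of their group. Within that slide the difference was −0.18, between 1 control and 2 irradiated arrays. With slide as a random block the adjusted p was 0.468.

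Hoxa3, which the thymus and parathyroid glands need to form, was −3.64, −4.06, −4.13, −4.00 and −3.37 on the 10-day control arrays and −3.75, −3.51, −2.78, −2.84 and −2.85 with 4 Gy serum. The 3 irradiated arrays on slide 3 were above all controls, and the 2 on slide 2 lay within the control range. The change was 0.69 ± 0.19 (adjusted p = 0.0331), and within slide 2 it was −0.26. Hoxa6 was −6.02, −5.49, −5.71, −6.17 and −5.19 with control serum and −5.16, −5.36, −4.76, −4.73 and −4.95 with 4 Gy serum, a change of 0.72 ± 0.16 (adjusted p = 0.017) and of −0.07 within slide 2. Neither call was kept when control array 1 or irradiated array 3, 4 or 5 was left out, and Hoxc5 alone was then called. Without irradiated array 2, 5 genes were called, beside 10.4% of all genes.

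Other members of the 10-day set split along the same slides without passing the test. Hoxa10 was 0.34, 0.27, 0.37, 0.27 and 0.35 with control serum and 0.42, 0.45, 0.88, 0.75 and 0.82 with 4 Gy serum, and the 3 arrays of slide 3 were the highest. Hoxa11 was 0.95, 1.10, 1.08, 0.91 and 0.96 and 1.04, 1.02, 0.53, 0.57 and 0.76, with the arrays of slide 3 the lowest of all 10. Hoxd13 was 1.74, 1.58, 1.64, 1.71 and 1.72 and 1.79, 1.77, 1.32, 1.21 and 1.28, again with slide 3 lowest. In all 3 genes the irradiated arrays on slide 2 lay within or just above the control range. Their changes were 0.34 ± 0.14, −0.22 ± 0.10 and −0.21 ± 0.11, with adjusted p of 0.14, 0.194 and 0.309. The part of slide in these values was not tested beyond the fits with slide as a block.

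**Figure D3:**
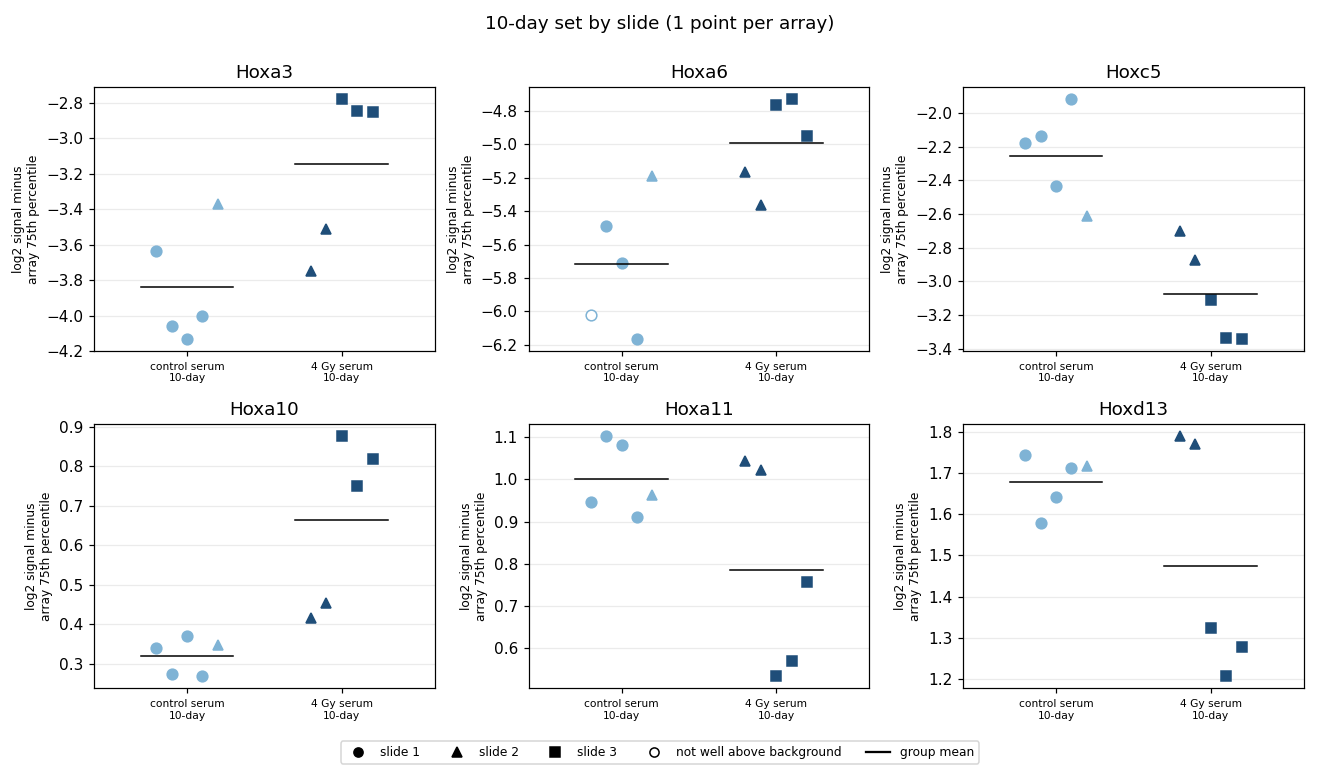
Signal of 6 Hox genes on each array of the 10-day set, as log2 signal minus the array 75th percentile (y axis; each panel has its own range), by serum group (x axis) and slide (symbol). Lines are group means. The 2 irradiated arrays on slide 2 lie nearer the control mean than the 3 on slide 3 do, in all 6 panels.

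The other 29 Hox genes did not pass the test with 4 Gy serum. Their changes ran from −0.27 for Hoxb5 to 0.78 for Hoxb8. Hoxb8, a gene of the thoracic level, had a standard error of 0.47, and its control array 4 was −5.71 while the other controls were −3.28 to −2.96. Changes whose standard error was at most 0.10 included Hoxa7 (−0.02 ± 0.07), Hoxb7 (0.01 ± 0.08) and Hoxa4 (0.03 ± 0.08).

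Between the control cultures, 23 of the 32 Hox genes differed, 4 higher and 19 lower in the 20-day set. Across all genes tested 66.4% were called, 37% higher and 29.4% lower, so 4 of 32 is a smaller share than that background and 19 of 32 a larger one. No test of these shares was made. The median Hox difference was −0.34, or −0.31 with the 3 genes without signal on one side set at their bound, beside 0.07 over all genes. Hoxa7, Hoxa11, Hoxb7 and Hoxd13 were the 4 that were higher. Among the 27 members above background on all 20 arrays, 4 were higher and 15 lower, beside 68.2% of genes with such signal called, 40.6% higher and 27.6% lower. With normexp background correction the split was 6 higher and 15 lower, and with slide as a random block 17 of the 23 calls were kept, 4 higher and 13 lower. Of all genes 65.7% and 54.6% were called in these fits. Set, slide and scan day cannot be told apart here, and this comparison shares the 20-day controls with that of 8 Gy serum and the 10-day controls with that of 4 Gy serum.

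The Hoxc cluster was lower in the 20-day controls. Of its 6 tested genes, 5 were lower and none higher, with a median of −1.66, or −1.34 with Hoxc12 and Hoxc13 at their bounds. Hoxc10, a hindlimb and lumbar gene, was −1.60, −1.63, −1.68, −1.62 and −1.63 on the 10-day control arrays and −3.68, −2.99, −3.12, −3.25 and −3.23 on the 20-day control arrays. The groups lay far apart, with a difference of −1.62 ± 0.10 (3.07-fold lower, adjusted p = 3.49e-11). Its second probe gave a measured −1.63 ± 0.25, but was above background on just 1 of 5 20-day control arrays. Hoxc5 was −4.99, −4.86, −4.46, −4.87 and −4.32 in the 20-day controls and −4.13, −4.08, −4.16, −4.07 and −3.89 with 8 Gy serum. All 10 values were below the 10-day set, and the difference between controls was −2.45 ± 0.15 (5.45-fold lower, adjusted p = 7.12e-11).

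Hoxc12 was −4.01, −3.74, −4.06, −4.08 and −4.49 on the 10-day control arrays and −6.66, −7.43, −7.78, −7.82 and −6.35 on the 20-day control arrays, where no array was above background. The measured difference was −3.13 ± 0.31 (adjusted p = 3.94e-08), and the bound was at least 3.92-fold lower. That bound holds for the main scale only: under the 9 alternative settings the difference ran from −3.32 to −0.36, called lower in all 9. Hoxc13 was −5.78, −6.15, −5.66, −5.43 and −5.75 and −7.46, −7.28, −6.85, −8.12 and −7.60, a measured difference of −1.71 ± 0.27 (adjusted p = 2.07e-05) and a bound of 1.23-fold lower. Since 4 of 5 10-day control arrays were above background, 1.23 is not a strict minimum. With normexp background correction Hoxc13 changed sign, to 0.21, and was not called. Hoxc8, a thoracic gene, was lower (−1.07 ± 0.17, adjusted p = 1.34e-05), and Hoxc9 did not pass the test (−0.13 ± 0.14, adjusted p = 0.423).

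In the Hoxb cluster, the widest difference between the controls was that of its tail-end gene Hoxb13. Hoxb13 was on average −3.14 ± 0.24 (SD, n = 5) in the 10-day controls and −7.54 ± 0.59 in the 20-day controls. Its measured difference was −4.40 ± 0.26 (adjusted p = 2.81e-11), and on the main scale it was at least 7.52-fold lower. Under the 9 alternative settings the difference ran from −4.67 to −1.26, called lower in all 9. Hoxb4 was 3.40-fold lower (−1.76 ± 0.21, adjusted p = 3.72e-07). Hoxb2, which specifies hindbrain segments, and Hoxb5 were lower (−0.47 ± 0.07 and −0.62 ± 0.09), with groups that did not overlap. Hoxb7 was the one member of its cluster that was higher, by 0.77 ± 0.08 (adjusted p = 7.57e-08), while Hoxb6 and Hoxb8 did not pass the test (−0.16 ± 0.13 and −0.37 ± 0.47). In all, 6 of 9 Hoxb genes were lower and 1 higher.

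Of the Hoxa and Hoxd genes, 3 were higher in the 20-day controls, 2 of them limb genes. Hoxd13 was higher by 0.95 ± 0.11 (1.93-fold, adjusted p = 6.23e-07), with its second probe at 0.29 ± 0.06. Hoxa11 was higher by 0.73 ± 0.10 (adjusted p = 1.80e-06) and Hoxa7 by 0.32 ± 0.07 (adjusted p = 2.49e-04). Hoxa7 was not called with quantile or cyclic loess normalization. None of the tested genes next to them in the clusters was called higher on the probe that stands for it. Hoxd11, Hoxd10, Hoxd9 and Hoxd8 were lower (−0.77 ± 0.13, −0.25 ± 0.10, −0.79 ± 0.07 and −0.31 ± 0.12), as were Hoxa9 and Hoxa5 (−0.69 ± 0.13 and −1.03 ± 0.13). Hoxa6, Hoxa10 and Hoxa13 did not pass the test (−0.32 ± 0.16, 0.03 ± 0.14 and 0.15 ± 0.18), but the other probe of Hoxa13, next to Hoxa11, was higher (1.00 ± 0.09, adjusted p = 5.04e-08). Neither Hoxd10 nor Hoxd8 was called in the fit with the slide block (adjusted p = 0.196 and 0.104), and Hoxd10 was called in 3 of 10 fits that leave out 1 array. Hoxd9 was −2.12, −1.85, −2.01, −2.06 and −2.04 on the 10-day control arrays, all above the 20-day values given before.

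At the head end of the clusters, 5 of the 8 tested genes were lower in the 20-day controls and none higher, with a median of −0.37. Beside Hoxb2 and Hoxb4, these were Hoxb3 (−0.73 ± 0.31, adjusted p = 0.0433), Hoxd3 (−0.90 ± 0.39, adjusted p = 0.0487) and Hoxa4 (−0.19 ± 0.08, adjusted p = 0.0407). None of these last 3 was called with slide as a random block, the calls on Hoxb3 and Hoxd3 were also lost under most other alternatives, and Hoxa4 changed sign under cyclic loess (0.00) and normexp (0.14). The other probes of Hoxa3, Hoxa4 and Hoxb3 were called lower (measured −1.44, −1.39 and −2.21), while the main probe of Hoxa3 was not called (−0.28). On the 20-day control arrays these other probes were above background on 2, 0 and 4 of 5, so for Hoxa4 just a bound holds, at least 1.82-fold lower. Hoxa2 and Hoxd4, genes of the hindbrain and its border with the spinal cord, were −0.01 ± 0.10 and −0.04 ± 0.24 and did not pass the test.

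**Figure D4:**
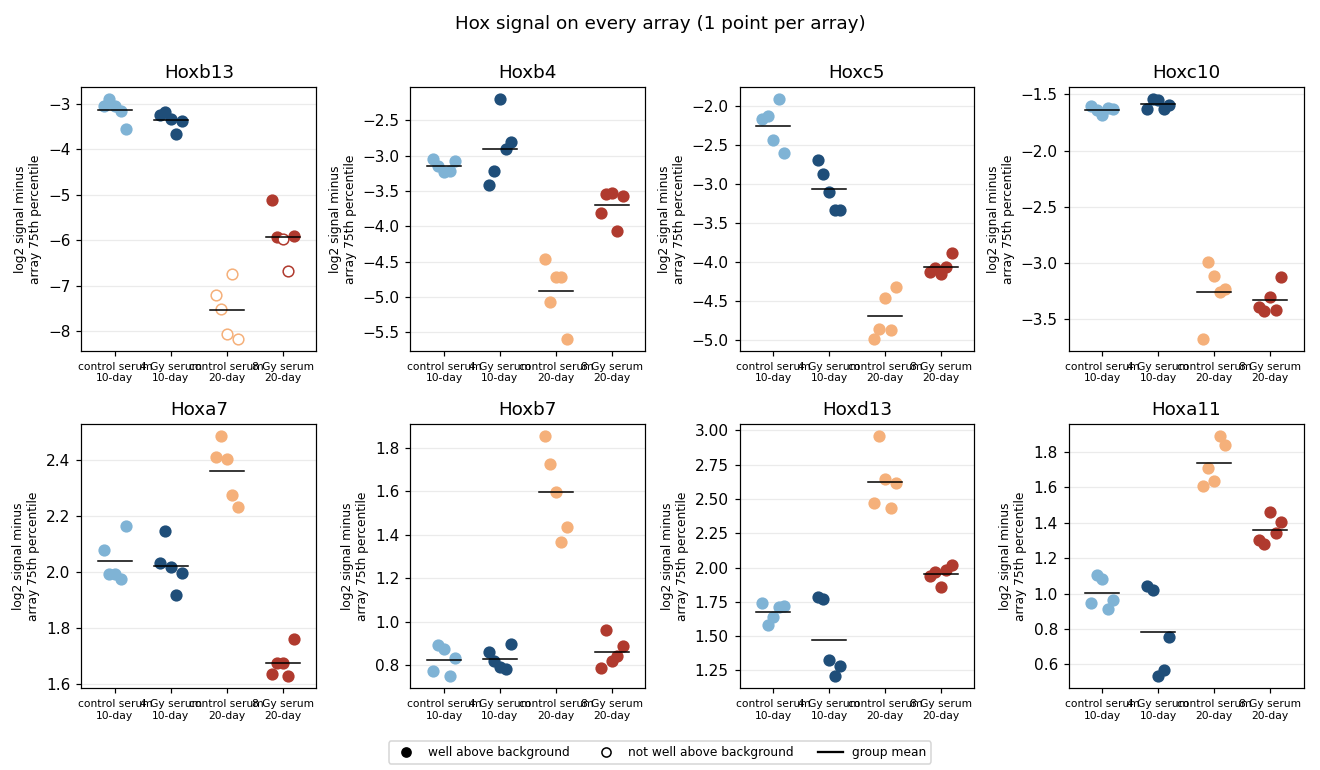
Signal of 8 Hox genes on each of the 20 arrays, as log2 signal minus the array 75th percentile (y axis; each panel has its own range), by serum group (x axis). Lines are group means and open points arrays on which the probe was not well above background. Hoxb13, Hoxb4, Hoxc5 and Hoxc10 are lower in the 20-day controls than in the 10-day controls, and Hoxa7, Hoxb7, Hoxd13 and Hoxa11 are higher there than in the other 3 groups.

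Between the irradiated-serum cultures, 28 of the 32 Hox genes differed, 2 higher and 26 lower with 8 Gy serum of the 20-day set than with 4 Gy serum of the 10-day set. Across all genes tested 58% were called, 29.2% higher and 28.8% lower. Among the 27 members above background on all 20 arrays 2 were higher and 22 lower, beside 57.8% of genes with such signal called, 31.4% higher and 26.4% lower. The median Hox difference was −0.57, beside 0.00 over all genes. Hoxa11 and Hoxd13 were the 2 that were higher, by 0.57 ± 0.10 and 0.48 ± 0.11. The other probe of Hoxd13 gave 0.07 and was not called. This comparison adds dose to set, slide and scan day, and these cannot be told apart. With slide as a random block 23 of the 28 calls were kept, 2 higher and 21 lower, beside 43.4% of all genes called.

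Hoxc10 was −1.63, −1.54, −1.55, −1.63 and −1.59 with 4 Gy serum and −3.39, −3.43, −3.30, −3.41 and −3.13 with 8 Gy serum, a difference of −1.74 ± 0.10 (adjusted p = 2.13e-11). Hoxc12 was −4.08, −4.21, −4.19, −4.32 and −4.15 and −6.30, −7.97, −7.71, −8.23 and −7.37, at least 4.02-fold lower, and Hoxc13 was −5.08, −5.15, −4.87, −5.04 and −5.20 and −6.35, −8.23, −7.98, −7.16 and −7.69, at least 2.19-fold lower. Both 20-day groups thus held these 3 Hoxc genes low. The bounds hold for the main scale only: under the alternative settings the difference ran from −3.42 to −0.39 for Hoxc12 and from −2.41 to 0.02 for Hoxc13. Hoxb2 was 0.77, 0.87, 0.93, 0.98 and 0.99 with 4 Gy serum and 0.11, 0.21, 0.12, 0.27 and 0.27 with 8 Gy serum, a difference of −0.71 ± 0.07 (adjusted p = 1.27e-07). Hoxa5, which the developing lung and shoulder need, was −1.88, −1.93, −1.88, −1.91 and −1.88 and −3.08, −3.30, −2.85, −2.68 and −3.02, a difference of −1.09 ± 0.13 (adjusted p = 9.14e-07). Its controls were −1.95, −1.87, −1.97, −1.99 and −1.95 in the 10-day set and −2.57, −2.75, −3.41, −2.97 and −3.17 in the 20-day set, and within neither set did Hoxa5 pass the test. Hoxb13 differed by −2.56 ± 0.26 and Hoxa3 by −1.23 ± 0.19. Hoxb7, Hoxd3, Hoxd4 and Hoxa13 did not pass the test, though the other probe of Hoxa13 was called higher (0.40, beside 0.39 on its main probe).

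The change with 8 Gy serum differed from the change with 4 Gy serum in 10 of the 32 Hox genes. The difference was upward in Hoxb4, Hoxb13 and Hoxc5 and downward in Hoxa2, Hoxa3, Hoxa4, Hoxa7, Hoxa10, Hoxb7 and Hoxd13. Across all genes tested 34.2% were called, 12.2% upward and 22% downward, so the Hox shares were near the background. Among the 27 members above background on all 20 arrays the split was 2 and 7, beside 34.8% of genes with such signal called, 11.8% upward and 22.9% downward. The median was −0.16 for Hox genes and −0.11 for all genes. Hoxc5 changed by −0.82 ± 0.15 with 4 Gy serum and by 0.63 ± 0.15 with 8 Gy serum, a difference of 1.45 ± 0.22 (adjusted p = 8.34e-05). Hoxa7 changed by −0.02 ± 0.07 and −0.69 ± 0.07, a difference of −0.67 ± 0.09 (adjusted p = 4.29e-05), and Hoxb7 by 0.01 ± 0.08 and −0.74 ± 0.08, a difference of −0.74 ± 0.11 (adjusted p = 1.00e-04). For Hoxb13 the measured difference was 1.84 ± 0.36 (adjusted p = 9.14e-04), with its 20-day controls not above background, so that its size is not known. The 5 kept with slide as a random block were Hoxa7, Hoxb4, Hoxb7, Hoxb13 and Hoxc5, beside 17.9% of all genes called. With normexp background correction 1 was upward and 5 were downward, beside 29% of all genes called. Of the 3 called genes with a second probe, Hoxa3, Hoxa4 and Hoxd13, none was called on it, and those of Hoxa3 and Hoxa4 had the opposite sign.

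Hoxa3 and Hoxa10 also differed in their change between the sets, by −0.95 ± 0.26 and −0.69 ± 0.19 (adjusted p = 0.00919 and 0.00943). Hoxa3 was −4.00, −4.17, −4.27, −4.04 and −4.11 on the 20-day control arrays and −4.23, −4.63, −4.64, −4.15 and −4.21 with 8 Gy serum. Hoxa10 was 0.04, 0.26, 0.97, 0.19 and 0.26 and −0.18, −0.05, 0.10, 0.08 and 0.02, with the third control array far above the other 4. The second Hoxa3 probe had the opposite sign for this difference (0.40, not called). Neither difference was kept with slide as a random block (adjusted p = 0.189 and 0.116), and the 10-day values of both genes are those that split by slide.

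For 8 tested genes a second probe passed the filter, which shows how far a value depends on the probe. Between the controls, 7 of the 8 had the same sign on both probes, and for 5 of the 6 called genes the second probe was called the same way. Between the irradiated-serum cultures all 8 had the same sign, and 4 of the 7 called genes were called the same way on both. With 8 Gy serum, 4 of the 8 had the same sign, and 2 of the 4 called genes, Hoxd9 and Hoxd13, were called the same way on both. Hoxb3 was −0.01 on the probe that stands for it and 1.75 ± 0.41 on the other (adjusted p = 0.00315). The 20-day controls of the first probe were −3.55, −1.64, −3.10, −1.54 and −1.40, with arrays 1 and 3 far below the other 3, and those of the second were −5.49, −3.87, −3.12, −3.25 and −2.55. Hoxa13 did not pass the test with 8 Gy serum or between the controls on its main probe (0.14 and 0.15), while its other probe fell with 8 Gy serum (−0.59 ± 0.09) and was higher in the 20-day controls by 1.00 ± 0.09, the same directions as Hoxd13. With 4 Gy serum the second probe of Hoxa3 gave 0.02, where the first gave 0.69.

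**Figure D5:**
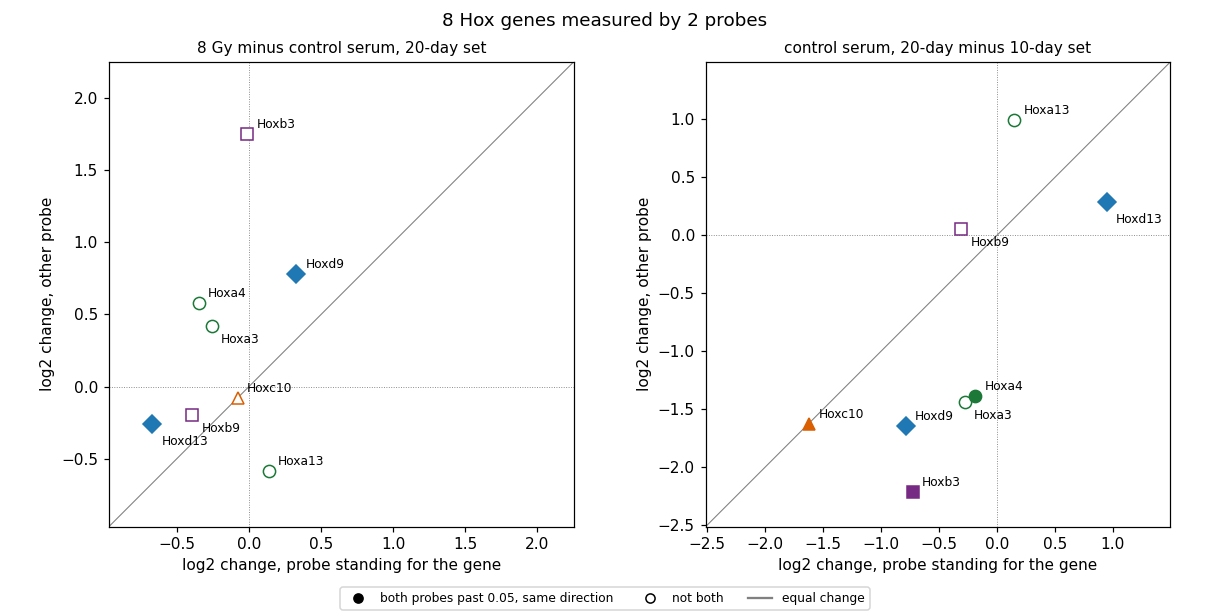
Log2 change of 8 Hox genes on the probe that stands for the gene (x axis) against the change on the gene's other probe (y axis), with 8 Gy serum and between the controls. Symbols mark the cluster, filled symbols genes called in the same direction by both probes, and the diagonal equal change. Hoxc10 lies on the diagonal in both panels, and Hoxb3, Hoxa3, Hoxa4 and Hoxa13 lie in quadrants of opposite sign in the 8 Gy panel. On the 20-day control arrays the other probe of Hoxa4 was above background on 0 of 5 and that of Hoxc10 on 1 of 5.

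The partners and regulators of Hox genes were described from lists fixed with earlier results of these data known. Hox proteins bind DNA with TALE homeodomain cofactors of the Pbx, Meis and Pknox families. With 8 Gy serum 3 of 9 cofactor genes rose and 1 fell. Meis3 rose by 0.92 ± 0.17, and Meis2 fell (−0.54 ± 0.08). With 4 Gy serum Meis1 alone was called, higher by 0.55 ± 0.14, without slide in the fit. Between the controls 6 of 9 were lower in the 20-day set and none higher, with a median of −0.70, among them Pknox2 (−2.10 ± 0.21) and Pbx3 (−0.79 ± 0.10).

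Polycomb proteins keep Hox genes silent through methylation of histone H3 at lysine 27, and Trithorax proteins keep them active. Of 22 tested Polycomb and related genes, 5 rose and 4 fell with 8 Gy serum. The Polycomb subunit Eed fell (−0.71 ± 0.08), and Pcgf2 and the demethylase Kdm6b rose by 0.86 ± 0.10 and 0.60 ± 0.09. Between the controls 2 were higher and 8 lower, among them Kdm6b at −1.66 ± 0.09 and Pcgf2 at −1.47 ± 0.10. Of 10 tested Trithorax genes, 2 fell with 8 Gy serum, Psip1 (−0.85 ± 0.08) and Dpy30 (−0.62 ± 0.08), and none rose. Between the controls 2 were higher and 6 lower, with Dpy30 higher by 1.22 ± 0.08. No gene of either list was called with 4 Gy serum. The shares called among all genes are those given for each comparison above.

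Retinoic acid switches on Hox genes in order from the head end of a cluster. Of 16 tested genes of its pathway, 2 rose and 1 fell with 8 Gy serum, and the receptor gene Rarg rose by 0.88 ± 0.12. Between the controls 2 were higher and 8 lower, and Aldh1a2, which makes retinoic acid in the embryo, was lower (−1.96 ± 0.11). The receptor genes Rarb and Rarg were lower (−1.01 ± 0.10 and −0.99 ± 0.12). Of 6 tested homeobox genes of Hox-like type outside the clusters, 4 were lower between the controls, among them the somite gene Meox1 (−1.38 ± 0.16), and none was higher.

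Among 27 tested transcription factors that mark other body regions, 3 rose and 12 fell with 8 Gy serum. The limb gene Prrx1 rose by 0.73 ± 0.12, and Lhx2 fell (−0.70 ± 0.10). Between the controls 8 were higher and 10 lower, and the facial gene Alx1 was higher by 2.39 ± 0.15. With 4 Gy serum 3 rose and none fell, and Alx4, a relative of Alx1, was higher by 0.98 ± 0.21, again without slide in the fit.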

How the data were processed

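The authors hybridised Cy3-labelled cRNA to one-colour Agilent arrays and deposited scanner output with Feature Extraction 10.5.1.1, per the file headers (11.0 in the submitters' processing notes). The unit used is the deposited processed spot intensity, background-corrected by that software, per the file headers. The authors also deposited a log2 table, whose direction is that of the arrays. Set against the scanner values centred per probe within each set, its columns correlated at 0.994 or more, and its column medians ran from −0.12 to 0.22; its own centring is not stated. Marks for flagged spots and signal above background are the deposited ones.

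Here log2 intensities of unflagged spots were averaged per probe, and the array's 75th percentile was subtracted. A probe was tested if its signal was marked as well above background on every array of 1 or more groups, and the probe with the highest mean stood for its gene. Of 41174 probes, 24844 were named through RefSeq accessions (17178 genes), and 16330 stood for themselves. All 4 groups entered 1 fit with limma 3.58.1 in R 4.3.3 (lmFit, eBayes, Benjamini-Hochberg over 20226 genes, of which 20224 or 20225 had a value in a given contrast, threshold 0.05, two-sided) with 5 contrasts, checked on simulated arrays. Their number, 5 a group, limits the precision. Alternatives were array-median, quantile and cyclic loess scaling, normexp (offset 50), no filter, single probes, slide or replicate number as a block, 2-group fits, the deposited log2 table, and leaving out each array.

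Replicate numbers come from the labels' titles. Deviations of same-numbered arrays correlated above 0.1 in 5 of 5 pairs of the 20-day groups (0.14 to 0.41). The same held for 3 of 5 pairs of the 10-day groups (−0.05 to 0.18). Across the sets it held for 3 of 5 pairs of 10-day controls with 8 Gy arrays (−0.12 to 0.47). It held for 1 of 5 pairs of 10-day with 20-day controls (−0.06 to 0.43). The 4 Gy arrays gave 0 of 5 with either 20-day group. The main fit paired no arrays, and replicate number entered only as a block in alternatives.

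Members and the 6 pathway and 6 marker lists were chosen with earlier results of these data known. The members are named throughout, with array values for up to 6 of the smallest p past the threshold in each comparison and for further genes chosen after their values were seen (Hoxa11, Hoxa10, Hoxb3). Of each pathway list up to 3 genes of the smallest p were open to naming, and some of these are not reported here. Promoters came from RefSeq (GRCm38.p6) for 22 members.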

Additional observations from a re-analysis of the deposited data

Results flagged for a closer look

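Single arrays stood apart from the other 4 of their group in 8 of 128 sets of values, or 6.25%, where chance alone gives about 1 in 20. Hoxa10 was 0.97 on 20-day control array 3, beside 0.04 to 0.26 on the others. Hoxb8 was −5.71 on 10-day control array 4 and −5.61 on 8 Gy array 2, each far below its group. Hoxb5 was −0.63 on 10-day control array 1, −1.02 on 4 Gy array 2 and −1.79 on 8 Gy array 3. Hoxa13 was −3.43 on 8 Gy array 3, above its group, and Hoxd10 was −0.58 on 20-day control array 2.

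The response to irradiated serum differed between the sets, by the test of the difference itself, in 10 of the 32 tested Hox genes. This was near the share among all genes tested, of which 34.2% were called, 12.2% upward and 22% downward. With slide as a random block 5 of the 10 calls were kept. The 20-day minus the 10-day response was 1.45 for Hoxc5 and 0.97 for Hoxb4, and the measured value for Hoxb13 was 1.84, of unknown true size since no 20-day control array was above background. It was −0.41 for Hoxa2, −0.95 for Hoxa3, −0.38 for Hoxa4, −0.67 for Hoxa7, −0.69 for Hoxa10, −0.74 for Hoxb7 and −0.47 for Hoxd13.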

How the results depend on the processing

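Of the gene values recomputed under alternatives for the 78 called changes, 1401 kept direction and call, 198 kept direction and lost the call, and 7 changed sign. The 7 were Hoxa3 (−0.26) and Hoxa6 (−0.0733) with 4 Gy serum under slide as a fixed block, Hoxa4 between the controls under cyclic loess (0.00172) and normexp (0.14), Hoxc13 between the controls (0.21) and between irradiated groups (0.0153) under normexp, and Hoxa6 between irradiated groups (0.17) under normexp. For 4 Gy serum, with 3 genes called, slide as a random block and slide as a fixed block each gave 0, and the fit of these groups alone and the deposited log2 table each gave 5 (4 up, 1 down). Of all genes 5.97% were called in the main fit, and 0.00494%, 0.0989%, 12.7% and 12.7% in these 4 alternatives. For 8 Gy serum, with 14 called, the slide block gave 9 and normexp 8, and array-median scaling split 17 calls into 3 up and 14 down. Of all genes 46% were called in the main fit, and 29.2%, 38.9% and 51.7% in these alternatives, so the shares of all genes moved as well. For the difference between the responses, with 10 called, the slide block gave 5 and normexp 6, beside 17.9% and 29% of all genes. The cause was not tested. Leaving out 1 array gave 1 to 5 genes for 4 Gy serum, 10 to 14 for 8 Gy serum, 17 to 22 between the controls, 27 to 28 between irradiated groups and 8 to 11 for the difference. Of all genes these fits called 1.08% to 10.4%, 42.3% to 48.2%, 63.1% to 68%, 53.7% to 56.7% and 30.2% to 38.5%. The median of all genes moved with the scale: under the array median it was −0.24 for 8 Gy serum, 0.20 between the controls and −0.18 for the difference, and under normexp 0.22, 0.10 and −0.12 between the controls, between irradiated groups and for the difference, where the 75th percentile gave −0.11 for the difference. With replicate number as a block, 3, 14, 21, 28 and 10 genes were called in the 5 comparisons, beside 7.8%, 46.9%, 67%, 58.6% and 35% of all genes. That block was shared by both sets; a replicate block within the 20-day set alone, chosen after seeing the data, kept 10 of the 14 calls with 8 Gy serum. Probes near background give bounds only, as for Hoxb13, Hoxc12 and Hoxc13 in the 20-day set, and these bounds hold for the main scale only.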

Other observations

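Hoxb8, Hoxd4 and the second probe of Hoxb9 had low values on some of the same arrays. On 10-day control array 4, Hoxd4 was −0.33 beside 0.50 to 0.93 on the other controls, Hoxb8 was −5.71, and the second Hoxb9 probe was −0.25 beside 0.92 to 1.24. On 8 Gy array 2, Hoxd4 was −0.01 beside 0.38 to 0.71, and the second Hoxb9 probe was −0.12 beside 0.81 to 0.88. The main Hoxb9 probe was not low on these arrays, at 1.49 and 0.86. These genes were chosen after their values were seen, and no test was made.

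Hoxd3 spread widely in the 20-day set, at −4.33, −6.15, −5.03, −4.54 and −4.83 with control serum and −4.83, −2.72, −5.65, −4.15 and −4.35 with 8 Gy serum, against −4.52 to −3.79 in the 10-day groups. Hoxd12 and Hoxb1 stayed outside the tests, with group means of −6.69 to −6.27 and −8.64 to −7.91.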
